A study of Mus musculus with 5 samples.

Results

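Iron and metal handling was described here by 10 genes: Trf, Tfrc, Fth1, Ftl1, Slc40a1, Slc11a2, Hmox1, Cp, Mt1 and Mt2. A probe set, the group of short array probes that reports on a transcript, was taken for a gene only where the platform annotation gave it that symbol and no other. On this rule 8 of the 10 genes had a probe set, out of 12393 genes on the array, and they had 21 probe sets between them, plus 3 for Tfrc among the manufacturer's control probe sets. Trf and Ftl1 have probe sets only in company with other symbols, so their signal could not be assigned to them. Whole C57BL6J mouse embryos of embryonic day 9.5 were compared, with 3 arrays of the Folr1+/+ genotype (wild type) and 2 of the Folr1-/- genotype (knockout of folate receptor alpha, which takes folate into cells), hybridised to Affymetrix Mouse Genome 430A arrays. Per the labels, both parents of the Folr1-/- embryos were Folr1+/-, and the mothers ate extra folate from before mating until collection. Whether Folr1+/+ embryos had mothers on that diet is not said, so an effect of diet cannot be told apart from one of genotype. Decidua, chorion and amnion were dissected away, and the labels are silent on the yolk sac and on how many embryos gave the RNA of an array. The sample titles call the arrays biological replicates, without saying whether each came from a single embryo or a pool. The p-values measure the spread between these 5 arrays, whatever share of it is technical.

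Iron travels in plasma bound to transferrin (Trf), enters cells with the transferrin receptor (Tfrc), leaves the endosome through the metal transporter DMT1 (Slc11a2), is stored in ferritin (Fth1 and Ftl1) and leaves cells through ferroportin (Slc40a1). Ceruloplasmin (Cp) oxidises exported iron, and heme oxygenase (Hmox1) frees iron from heme, while metallothioneins (Mt1 and Mt2) are small cysteine-rich proteins that bind zinc and copper and are induced by these metals. At this stage the visceral endoderm of the yolk sac secretes transferrin and passes nutrients to the embryo, and primitive red blood cells take up iron for hemoglobin.

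The iron importer gene Tfrc fell by 1.00 on the log2 scale, while the exporter gene Slc40a1 rose by 1.26 and the metallothionein genes Mt1 and Mt2 rose by 1.74 and 1.36. Of the 8 genes, 6 were bright enough to test, and of these 3 rose, 1 fell and 2 (Fth1 and Slc11a2) did not pass. Over all 7436 genes tested, 15.0% passed in either direction, 8.19% higher and 6.79% lower in Folr1-/- arrays. The median log2 fold change was 0.83 over the 6 tested members and -0.02 over all tested genes. In each of the 6 all arrays of a genotype lay on the same side of the other genotype, as they did in 46.7% of all tested genes. With each array centred on its median, 69.3% of all called genes were higher in place of 54.7%, and Fth1 joined the members that rose. Counted by probe set, 11 of the 21 could be tested and 3 were higher and 1 lower, where 11.2% of all 13576 tested probe sets were called. With no limit on signal all 21 entered and again 3 were higher and 1 lower, beside 4.06% of all probe sets. Fold changes are Folr1-/- minus Folr1+/+ on the log2(signal + 16) scale with their standard error (SE), the test was limma's moderated test with Benjamini-Hochberg adjustment over all tested genes, and the threshold was an adjusted p of 0.05.

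**Figure D1:**
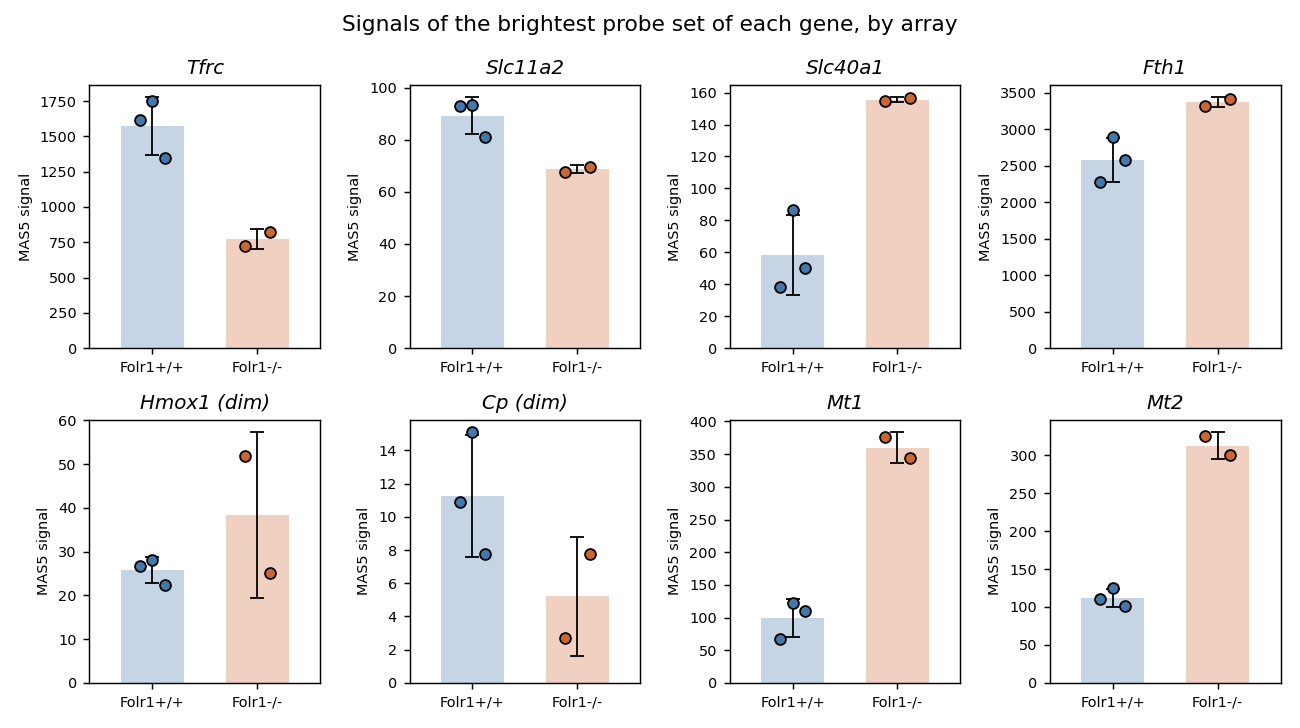
MAS5 signal (linear axis from 0) of the brightest probe set of each gene on every array, with 3 Folr1+/+ and 2 Folr1-/- arrays. Points are arrays, bars are means and error bars are 1 SD. Tfrc lies at 721 and 824 in Folr1-/- arrays, below the lowest Folr1+/+ value of 1347, and Mt1 and Mt2 lie far above the Folr1+/+ values, while Hmox1 and Cp, marked dim, were under the signal limit of the gene test.

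Some values of the whole series touch these results. The Folr1 signal was 57.0, 50.01 and 40.2 in Folr1+/+ arrays and 50.2 and 41.8 in Folr1-/- arrays (log2 fold change -0.07 ± 0.20, SE, limma adjusted p = 0.858), and as the labels do not say which part of the gene was removed, this is no check of the genotype. The groups differed in sex-linked genes: Xist was at 25.0 to 35.7 in Folr1+/+ arrays and at 419 and 770 in Folr1-/- arrays, and the Y-linked Eif2s3y at 300.3 to 372 against 104 and 3.13. Folr1-/- replicate 1 thus carried both signals. Sex-linked signals differed along with genotype, so an effect of sex cannot be told apart from one of genotype. The tested members are given below without Folr1-/- replicate 1. This leaves only Folr1-/- replicate 2, with high Xist and low Eif2s3y, so those values do not separate sex from genotype. Folr1+/+ replicate 2 stood apart in its spike-in controls, with a geometric mean signal of 703 against 248 to 375 on the other arrays, and in its Actb 3'/5' ratio of 39.5 against 21.1 to 30.5.

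Markers of other cell types moved with the groups. All 21 visceral endoderm markers that could be tested, of 22 listed, were higher in Folr1-/- arrays (median log2 fold change 2.35), with a summed signal of 5364 to 6449 in Folr1+/+ and 23230 to 24355 in Folr1-/- arrays. Among them, Ttr, a thyroid hormone carrier, rose by 2.48 ± 0.18 (SE). Apoa2 and Fgb had Folr1+/+ means of 18.6 and 28.6, under the signal limit of 30.0, and passed it through the Folr1-/- arrays. With no filter 20 visceral endoderm markers were called higher. Of 8 tested primitive erythroid markers, 7 were lower (median -1.89), with a summed signal over 13 genes of 5522 to 6460 in Folr1+/+ and 236 and 651 in Folr1-/- arrays. Among these, Hba-x, Slc4a1, Klf1, Ermap and Alas2 had Folr1-/- means of 9.72 to 16.2 and passed the signal limit through the Folr1+/+ arrays. With no filter 7 erythroid markers were again called lower, with a median of -1.24. Of the macrophage markers, 11 were on the array and 2 could be tested, neither past the threshold. With no filter 1 macrophage marker was called higher, as was 1 with each array centred on its median. Csf1r, the colony stimulating factor receptor, had 0.56 ± 0.20 (limma adjusted p = 0.0783, unadjusted p under 0.05), Adgre1 had -0.36 ± 0.22, and Aif1, Cx3cr1, Fcer1g and Ptprc stayed under a signal of 16 on every array. Of the trophoblast and decidua markers 3 were tested and called higher (Plac1, Hand1 and Prl8a2), with a summed signal over 8 genes of 208 to 228 against 468 and 582. Prl8a2 (15.3, 13.6 and 23.2 against 143 and 34.6) passed the signal limit through the Folr1-/- arrays, and 1 of the list was called with no filter, with the filter at the 60th percentile, without Folr1-/- replicate 1 or without Folr1+/+ replicate 3. The 6 tested neural progenitor markers fell. Of these, Hes5, Pax6 and Zic1 had Folr1-/- means of 8.55 to 22.0 and passed the signal limit through the Folr1+/+ arrays. With no filter 6 neural markers were again called lower. Of 7 tested endothelial markers 0 passed the limma threshold, 1 of them (Tek) having an unadjusted p under 0.05. The part of these cell types in the changes of the iron and metal genes was not tested, and in whole embryos fewer cells of a type and less RNA per cell cannot be told apart. The labelled tissue is whole embryo, and neural (Sox2), blood (Hbb-y) and endothelial (Kdr) markers were all present in the Folr1+/+ arrays.

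Among the import genes, Tfrc fell and Slc11a2 did not pass the test. Tfrc, the receptor that brings transferrin-bound iron into cells, read 1617, 1749 and 1347 in Folr1+/+ arrays (1571 ± 205, SD, n = 3) and 721 and 824 in Folr1-/- arrays (773 ± 73.1, SD, n = 2). The highest Folr1-/- value lay well under the lowest Folr1+/+ value. This is a 2.01-fold lower level on the signal + 16 scale (log2 fold change -1.00 ± 0.16, SE, limma adjusted p = 0.00128). The fall was -0.91 without Folr1-/- replicate 1 and kept its call in each of the 5 fits that left out an array. These values come from probe set 1452661_at. The other Tfrc probe sets, 1422966_a_at and 1422967_a_at, stayed between 1.32 and 15.6 on all arrays and were too dim to test, and the 3 control probe sets for the 5' end, middle and 3' end of the transcript stayed between 0.788 and 17.1. With the mean of the gene's probe sets in place of the brightest, the log2 fold change was -0.39 and the call was lost (limma adjusted p = 0.0968). The erythroid markers, whose cells carry this receptor in abundance, were lower in the same arrays, and a link to Tfrc was not tested.

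Slc11a2, which moves iron across the endosomal membrane, was measured by 3 probe sets. The brightest, 1426441_at, read 93.1, 93.5 and 81.1 in Folr1+/+ arrays and 67.8 and 69.7 in Folr1-/- arrays. The groups did not overlap, and the log2 fold change was -0.31 ± 0.18 (SE, 95% interval -0.70 to 0.08, limma adjusted p = 0.269). Without Folr1-/- replicate 1 it was -0.29. Probe set 1417584_at of the same gene had 67.3, 137 and 102 against 58.9 and 57.7. These groups did not overlap either, with -0.62 ± 0.24 (limma adjusted p = 0.130 over 13576 probe sets). The third, 1452078_a_at, overlapped, with 51.6, 95.8 and 82.0 against 71.4 and 37.2. All 3 probe sets had a negative fold change and none passed.

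The probe set that the annotation lists for Trf, the plasma iron carrier, is also listed for Srprb, a subunit of the signal recognition particle receptor. It read 61.5, 45.0 and 37.8 in Folr1+/+ arrays and 345 and 248 in Folr1-/- arrays. Both Folr1-/- values lay several fold above the Folr1+/+ range, with a log2 fold change of 2.29 ± 0.22 (SE, limma adjusted p = 0.000134 over the 13576 tested probe sets). Which of these genes carries the signal cannot be read from the array, so it counts for neither.

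The exporter gene rose. Slc40a1 encodes ferroportin, the iron exporter of mammalian cells, and its probe set 1417061_at read 38.0, 86.2 and 50.1 in Folr1+/+ arrays (58.1 ± 25.1, SD, n = 3). In the Folr1-/- arrays it had 154.5 and 157 (156 ± 1.44, SD, n = 2). The Folr1-/- arrays lay close together and above the scattered Folr1+/+ arrays, of which replicate 2 was the highest. The log2 fold change was 1.26 ± 0.25 (SE, limma adjusted p = 0.00548), a 2.40-fold higher level on the signal + 16 scale. Without Folr1-/- replicate 1 the call was lost (1.27, limma adjusted p = 0.0689), as it was without Folr1-/- replicate 2 (1.25, adjusted p = 0.0516), with nearly the same size in both. The second probe set, 1448566_at, went the same way with 16.5, 32.9 and 27.1 against 41.6 and 47.5 but did not pass (0.56 ± 0.23, limma adjusted p = 0.145 over the 13576 tested probe sets). The summed markers of visceral endoderm, a tissue known to express ferroportin, were higher in the same arrays, and a link to Slc40a1 was not tested.

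Cp, the ferroxidase that works beside ferroportin, was dim on every array. Its 7 probe sets had signals between 0.528 and 19.2, and none entered the test. The brightest by mean, 1417496_at, had 10.9, 15.1 and 7.75 in the Folr1+/+ arrays and 2.67 and 7.74 in Folr1-/- arrays, so the groups met at nearly the same value. Over the 7 probe sets the difference was negative in 6, at signals near or under the pseudocount of 16.

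The genes of iron storage and heme release did not pass the test. Fth1, the heavy chain of ferritin, read 2281, 2887 and 2572 in Folr1+/+ arrays and 3318 and 3415 in Folr1-/- arrays for probe set 1448771_a_at. Every Folr1-/- value was above every Folr1+/+ value, yet the change did not pass (log2 fold change 0.39 ± 0.14, SE, 95% interval 0.07 to 0.70, limma adjusted p = 0.0950). It passed with each array centred on its median (0.48, limma adjusted p = 0.0313), with quantile normalization (0.48, adjusted p = 0.0257) and without Folr1+/+ replicate 2 (0.47, adjusted p = 0.0391), and without Folr1-/- replicate 1 the change was 0.41 and did not pass. Over all 16 other settings its adjusted p in limma ranged from 0.0257 to 0.263. The second Fth1 probe set, 1427021_s_at, had 192, 189 and 177 against 268 and 217, again without overlap (0.35 ± 0.17, limma adjusted p = 0.202 over the 13576 tested probe sets). Ferritin genes have processed pseudogenes, and probe sets ending in _a_at or _s_at can match more than 1 transcript, so the level of Fth1 itself is uncertain.

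The light chain gene Ftl1 shares all of its probe sets with a pseudogene and in 1 case with microRNA genes. The shared set 1418364_a_at had 497, 609 and 608 against 552 and 651, and 1422302_s_at had 370, 295 and 384 against 300.4 and 409. In both the groups overlapped, with log2 fold changes of 0.07 ± 0.16 and 0.01 ± 0.19 (SE). The third, 1422301_at, had 93.4, 105 and 78.8 against 86.3 and 53.4, also overlapping.

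Hmox1, which opens the heme ring and releases its iron, read 26.7, 28.1 and 22.4 in Folr1+/+ arrays and 51.8 and 25.0 in Folr1-/- arrays. Folr1-/- replicate 1 was the highest of the 5 arrays and replicate 2 lay within the Folr1+/+ range. The gene lay under the signal limit of the gene test, equal to a signal of 30.0 in the mean. In the fit over probe sets, where the limit was lower, its log2 fold change was 0.34 ± 0.25 (SE, 95% interval -0.21 to 0.88, limma adjusted p = 0.411).

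**Figure D2:**
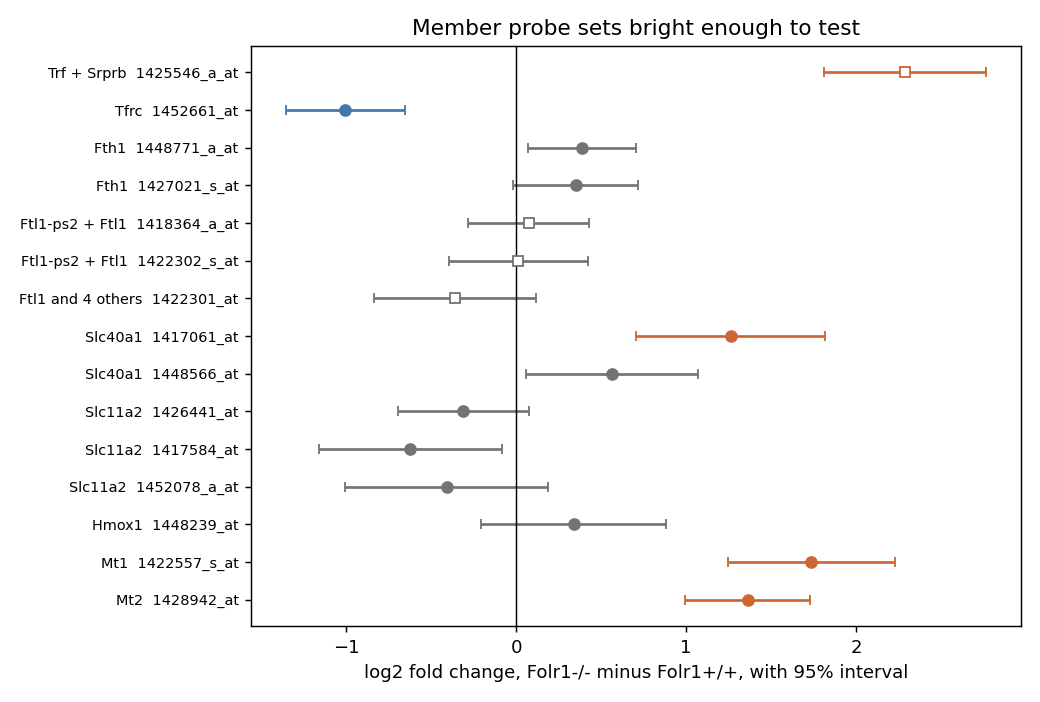
Log2 fold change (Folr1-/- minus Folr1+/+, log2(signal + 16) scale) with its 95% interval for the probe sets bright enough to test, from the fit over 13576 probe sets. Filled circles are probe sets of 1 member only and open squares are shared with other genes, with orange higher, blue lower and grey not past the threshold. Of the 11 filled probe sets, 3 were higher (Slc40a1, Mt1, Mt2) and 1 lower (Tfrc), where 11.2% of all tested probe sets were called.

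Both metallothionein genes rose. Mt1 read 66.7, 122 and 109.6 in Folr1+/+ arrays (99.4 ± 28.9, SD, n = 3) and 377 and 344 in Folr1-/- arrays (360.2 ± 23.4, SD, n = 2). Both Folr1-/- arrays lay above every Folr1+/+ array by a wide margin. The log2 fold change was 1.74 ± 0.22 (SE, limma adjusted p = 0.000306), a 3.33-fold higher level on the signal + 16 scale. Mt2 read 109.8, 125 and 101 in Folr1+/+ arrays (112 ± 12.2, SD, n = 3) and 325 and 299.9 in Folr1-/- arrays (312 ± 17.8, SD, n = 2). The arrays of each group lay close together, and the log2 fold change was 1.36 ± 0.17 (SE, limma adjusted p = 0.000277), a 2.57-fold higher level. Without Folr1-/- replicate 1 the changes were 1.67 and 1.31, and both genes kept their calls in all 16 other settings tried. The Mt1 values come from 1422557_s_at, whose suffix marks probes that can match more than 1 transcript. The other Mt1 probe set, 1451612_at, was dim and did not rise, with 9.72, 15.2 and 13.6 against 10.9 and 6.75. With the mean of both probe sets the Mt1 change was 0.76 (limma adjusted p = 0.0296).

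Mt1 and Mt2 are direct neighbours on chromosome 8 in the RefSeq gene table of GRCm38.p6, with Mt3 and Mt4 the next protein-coding genes on the Mt2 side. Mt3 had signals of 4.84, 36.0 and 22.6 against 27.8 and 0.999, and Mt4 stayed between 0.873 and 15.4, so both were too dim to test. Because Mt1 and Mt2 moved together, their upstream sequences were searched for the core of the metal response element, the site through which the zinc-sensing factor Mtf1 acts. The letters searched were TGCACNC and TGCGCNC on both strands of the RefSeq windows from 250 bases before to 50 bases after the annotated start, where the 2 forms can overlap when they lie on opposite strands. The 250 bases before the start are shown 5' to 3' on the plus strand of GRCm38.p6, at chr8:94178839-94179088 for Mt1 and chr8:94172368-94172617 for Mt2, with the matches in capitals.
Mt1: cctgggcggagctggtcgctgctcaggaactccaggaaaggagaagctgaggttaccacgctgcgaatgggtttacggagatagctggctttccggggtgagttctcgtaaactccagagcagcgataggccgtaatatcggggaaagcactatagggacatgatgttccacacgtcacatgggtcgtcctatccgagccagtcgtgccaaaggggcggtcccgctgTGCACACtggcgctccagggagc
Mt2: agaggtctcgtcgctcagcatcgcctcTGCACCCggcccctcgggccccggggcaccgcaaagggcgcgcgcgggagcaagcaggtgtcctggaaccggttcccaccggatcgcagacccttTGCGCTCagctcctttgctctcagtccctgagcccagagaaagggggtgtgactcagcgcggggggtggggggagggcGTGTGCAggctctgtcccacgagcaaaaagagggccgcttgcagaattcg
The Mt1 window held 3 matches, with first bases at -23, 3 and 21 from the start, all on the gene's strand. The Mt2 window held 4, with first bases at -223 and -128 on the gene's strand and at -50 and 5 on the other. Of all 32851 windows of this length, 25.7% held at least 1 match, 1.97% held at least 3 and 0.518% held at least 4. Among the other members, 4 had windows. The first of the 2 Tfrc windows held 2 overlapping matches, and the second, both Fth1 windows, both Cp windows and the Ftl1 window held 0. Outside the members, the window of the zinc exporter gene Slc30a1 held 2 matches, and 7.11% of all windows held at least 2. The dim neighbours Mt3 and Mt4 held 1 match each. A match shows only that these letters are present. Bases more than 50 after the annotated start were not searched, and whether that start is used in these embryos was not tested. Mtf1 itself had a log2 fold change of -0.15 ± 0.23 (SE, limma adjusted p = 0.709).

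**Figure D3:**
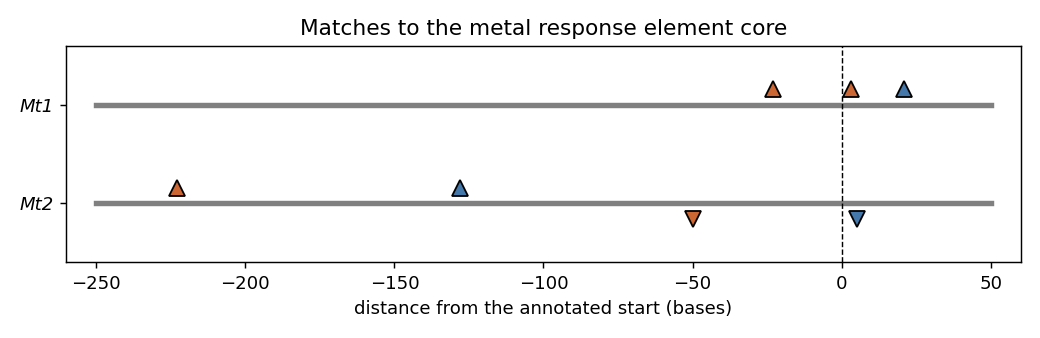
Positions of matches to the metal response element core along the windows of Mt1 and Mt2, in bases from the annotated start (dashed line). Triangles pointing up are on the gene's strand and those pointing down on the other, with orange for TGCACNC and blue for TGCGCNC. The 3 Mt1 matches found in the window lie around the annotated start, and the 4 Mt2 matches are spread over the window.

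Other genes of these pathways were counted in 6 lists, leaving the 10 members out. Of 62 such genes tested, 12 rose, 4 fell and 46 did not pass, so that 25.8% were called against 15.0% of all tested genes. Their median log2 fold change was 0.19, against -0.02 over all tested genes. The counts depended on single arrays, as they did over all genes. Without Folr1+/+ replicate 3, 6 of these genes rose and 3 fell. In that fit 398 of all 7436 tested genes rose and 238 fell, against 609 and 505 with all arrays. Without either Folr1-/- array fewer genes passed as well, both among these genes and over all genes.

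Zinc and copper genes had 4 higher, 1 lower and 18 not passing of 23 tested (median 0.31). Slc39a4, a zinc importer of absorptive epithelia, had signals of 54.4, 64.5 and 47.2 against 227 and 151. The log2 fold change was 1.50 ± 0.21 (SE, limma adjusted p = 0.000627). Ccs, the copper chaperone of superoxide dismutase, rose by 1.15 ± 0.19 (limma adjusted p = 0.00207), a call lost without Folr1-/- replicate 1 (0.89, adjusted p = 0.0556). Cox17, which delivers copper to cytochrome oxidase, rose by 1.03 ± 0.17 (limma adjusted p = 0.00181), with 135, 141 and 173 against 322 and 318. With the mean of its probe sets it did not pass (0.49, limma adjusted p = 0.0694). Slc30a1, the plasma membrane zinc exporter and itself a known Mtf1 target, rose by 0.81 ± 0.22, with 49.2, 35.5 and 27.4 against 74.4 and 77.9 (limma adjusted p = 0.0275). Its call was lost when either Folr1-/- array or Folr1+/+ replicate 3 was left out, and with no filter on signal (limma adjusted p = 0.0865). The 1 gene that fell was the zinc importer gene Slc39a6, named after its value was seen, with 1034, 1713 and 997 against 613 and 774 (-0.80 ± 0.22, limma adjusted p = 0.0306), and the list held no lower call without Folr1+/+ replicate 2 or without either Folr1-/- array.

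Iron uptake, transport and storage genes outside the members had 2 higher, 1 lower and 7 not passing of 10 tested (median 0.02). Slc39a8, a transporter of zinc, manganese and iron, had signals of 445, 445 and 472 against 947 and 1217 (1.21 ± 0.15, SE, limma adjusted p = 0.000346). With the mean of its probe sets it did not pass (0.64, limma adjusted p = 0.0570). Slc25a37, mitoferrin, which carries iron into mitochondria of red cell precursors, had 295, 238 and 218 against 68.6 and 93.4. It fell by 1.46 on the log2 scale (SE 0.19, limma adjusted p = 0.000410). The erythroid markers were lower in the same arrays, and a link to Slc25a37 was not tested. Ncoa4, the receptor that delivers ferritin to lysosomes, rose by 0.55 ± 0.17 (limma adjusted p = 0.0495), a call lost in all 5 fits that left out an array (adjusted p 0.0572 to 0.290). Among transcripts known to carry an iron-responsive element, the hairpin bound by iron regulatory proteins, the members Tfrc, Slc11a2, Fth1 and Slc40a1 are described above. Of the non-members 2 could be tested: Alas2, the erythroid enzyme that starts heme synthesis, fell by 1.56 on the log2 scale with 67.5, 66.0 and 56.1 against 7.03 and 15.3 (SE 0.22, limma adjusted p = 0.000623), and Cdc42bpa did not pass. Alas2 passed the signal limit through the Folr1+/+ arrays, and it kept its call with no filter (limma adjusted p = 0.00740). It is also 1 of the primitive erythroid markers above, so the counts of pathway genes and of erythroid markers share this gene.

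Genes of iron sensing and hepcidin control had 2 higher and 4 not passing of 6 tested (median -0.13, and 0.11 without Folr1-/- replicate 1). The ligand genes Bmp2 and Bmp6, which induce hepcidin in liver, rose by 1.21 ± 0.25 and 0.81 ± 0.24 (SE, limma adjusted p = 0.00724 and 0.0400). Bmp2 had 65.4, 40.7 and 83.5 against 134 and 196, and Bmp6 33.8, 20.2 and 16.6 against 45.2 and 59.6, without overlap in either. Without Folr1-/- replicate 2 neither passed, and without replicate 1 only Bmp2 did. Bmp6 also lost its call without Folr1+/+ replicate 2 or 3 (limma adjusted p = 0.0692 and 0.139), with a pseudocount of 1 (0.0504) and with no filter on signal (0.109). Its Folr1+/+ mean of 23.5 lay under the signal limit of 30.0, which it passed through the Folr1-/- arrays. The iron regulatory proteins Aco1 and Ireb2, which bind iron-responsive elements, had 0.03 ± 0.19 and -0.30 ± 0.17 and did not pass. Hamp, hepcidin itself, was too dim to test.

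Heme breakdown and transport genes had 3 higher, 1 lower and 5 not passing of 9 tested (median 0.49). Flvcr2, a membrane transporter, rose by 1.00 ± 0.26 (limma adjusted p = 0.0229), with 56.3, 55.8 and 27.6 against 129.6 and 85.7. Abcg2, an exporter of porphyrins, rose by 0.65 ± 0.15, and Nfe2l2, the NRF2 transcription factor that induces Hmox1 and ferritin genes, by 0.60 ± 0.16 (limma adjusted p = 0.0130 and 0.0253). Slc48a1, a heme transporter of endosomes, had 59.2, 54.8 and 47.4 against 22.8 and 26.6 (-0.78 ± 0.20, limma adjusted p = 0.0223). It passed the signal limit through the Folr1+/+ arrays. With no filter on signal neither Slc48a1 nor Flvcr2 was called (limma adjusted p = 0.0692 and 0.0856). None of these 4 heme gene calls held without Folr1-/- replicate 1 or without Folr1+/+ replicate 3 (limma adjusted p 0.0504 to 0.255). Without Folr1-/- replicate 2 only Flvcr2 passed, and without Folr1+/+ replicate 1 Nfe2l2 and Slc48a1 did not. Iron-sulfur cluster and mitochondrial iron genes had 1 higher and 11 not passing of 12 tested (median 0.18). The 1 was Fdx1, ferredoxin, with 191, 183 and 281 against 418 and 422 (0.92 ± 0.19, limma adjusted p = 0.00739), and it did not pass when either Folr1-/- array was left out.

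**Figure D4:**
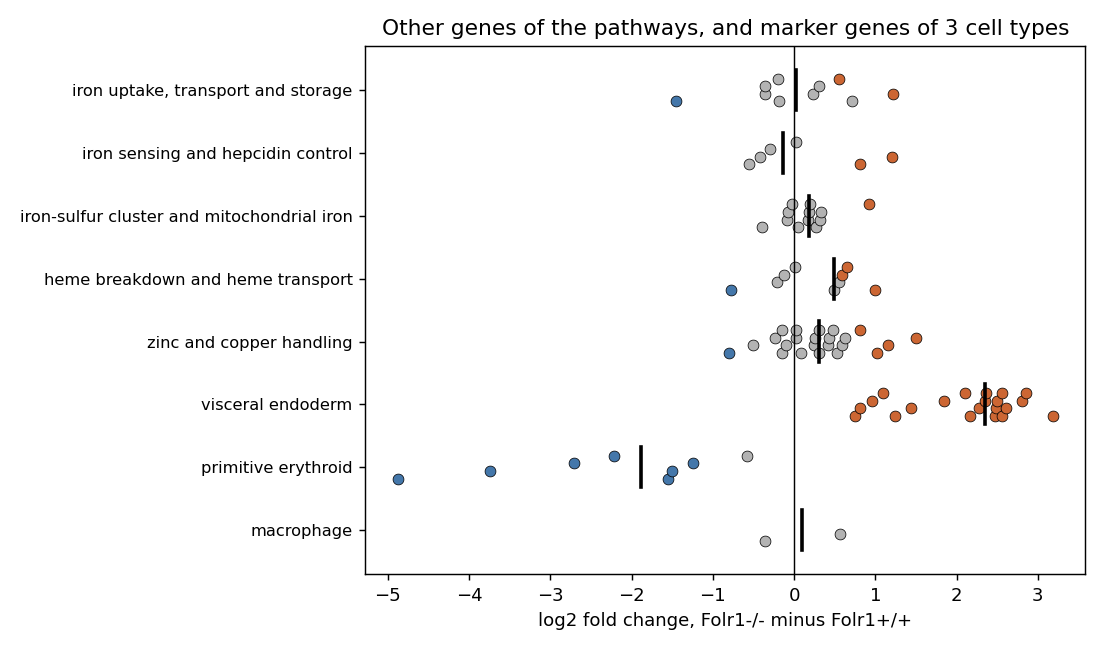
Log2 fold changes (Folr1-/- minus Folr1+/+) of tested genes in 5 pathway lists, members left out, and in 3 marker lists. Each point is a gene, orange higher, blue lower and grey not past the threshold, and black bars are list medians. Pathway genes scatter around 0 with medians from -0.13 to 0.49, while visceral endoderm markers lie at a median of 2.35 and primitive erythroid markers at -1.89.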

How the data were processed

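Signals of 5 arrays (3 Folr1+/+, 2 Folr1-/-) were used as deposited. They are linear intensities made by the authors with MAS5 (per the submitters' processing notes, which name no version). Their scaling was kept, with a trimmed mean signal of 150.06 to 150.07 on the arrays. Per the labels' protocols, RNA was amplified in 2 rounds and labelled with biotin, and the detection calls were not used here. Of 22690 probe sets, 64 were controls, 20380 had 1 symbol in the platform annotation, 691 several and 1555 were not listed.

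For a gene with several probe sets, the one of highest mean log2(signal + 16) stood for it, and genes under the 40th percentile of that mean (a signal of 30.0) were left out. A second fit took every probe set in the same way. limma 3.58.1 in R 4.3.3 (lmFit, eBayes with an intensity trend) was tested on simulated data and run on the 7436 genes left, with 3 residual degrees of freedom. The number of arrays limits the precision.

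The text names all members, Folr1, sex-linked genes, at most 4 called genes (or else up to 3 by smallest p) per pathway list and at most 3 bright markers per marker list. Further genes, such as Slc39a6, Mtf1, Mt3, Mt4, Aco1, Ireb2, Hamp and 4 dim macrophage markers, were named after their values were seen. So were the visceral endoderm, erythroid and neural markers said to lie under the signal limit. The members and lists were chosen with earlier results of these data known. Sequences are from RefSeq, GRCm38.p6. Windows were found for 6 of the 10 members. Alternatives are listed in the closing section.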

Additional observations from a re-analysis of the deposited data

How the results depend on the processing

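The 16 other settings changed the pseudocount (1 or 64), the filter (none, or the 60th percentile), the scaling (median centring or quantile normalization), the intensity trend, the array weights, the replicate block, the probe set rule and an Actb 3'/5' covariate, or left out 1 array. Every member kept its direction wherever it was tested. Over these settings the adjusted p of Slc40a1 ranged from 0.000375 to 0.0689 and that of Tfrc from 0.000173 to 0.0968. The count of members that fell was 0 when probe sets of a gene were averaged, because the dim Tfrc probe sets enter that mean. Without 1 array, 2 to 4 members rose and 1 fell. Over all genes 225 to 566 rose and 144 to 441 fell without 1 array, and 311 fell with no filter. Of the other pathway genes 4 to 12 rose and 2 to 4 fell without 1 array, 7 rose and 2 fell with the filter at the 60th percentile, and 2 fell with no filter. Where a knockout array was left out, the lone array was assumed to vary like the other group. With median centring the median of all genes was 0.07 in place of -0.02. Arrays with the same replicate number did not deviate together (correlations of 0.02 and -0.06 over 7436 genes). The 2 Folr1-/- arrays deviate from their mean as mirror images, so these are not separate checks and cannot exclude a pairing. With the replicate number as a block, 3 members rose and 1 fell, and over all genes 535 rose and 364 fell. Of the other pathway genes 8 rose and 4 fell in that fit. With no filter on dim probe sets, 3 member probe sets were higher and 1 lower, as in the filtered fit. The detection calls were not used, so a dim signal cannot be told from background.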
